A study of Mus musculus with 23 samples.

Results

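Respiratory complex I is the enzyme that passes electrons from NADH to ubiquinone in the inner mitochondrial membrane, and its subunits are encoded in the nucleus and in the mitochondrial genome. The genes described here were the rows of a microglial gene count table whose symbol was Nduf followed by a, b, c, s or v and a number, which gave 36 nuclear genes, together with the 13 protein-coding genes of the mitochondrial genome. These 49 genes were drawn from 35976 in the table. The nuclear rows held 7 core subunits, 3 of the module that takes electrons from NADH and 4 of the module that hands them to quinone. A further 28 were accessory subunits and 1 was Ndufa4, a name kept from complex I for a protein now assigned to complex IV (cytochrome c oxidase). The mitochondrial rows held 7 subunits of complex I, CYTB of complex III, 3 subunits of complex IV and 2 of the ATP synthase. The accessory subunit Ndufab1 has a name outside this pattern and was not among them.

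In the respiratory chain, complexes I, III and IV pump protons across the inner membrane and the ATP synthase uses the gradient to make ATP. The core subunits of complex I carry its flavin, iron-sulfur clusters, quinone site and proton channels, and the accessory subunits hold the assembly together. The nuclear genes are transcribed singly by RNA polymerase II, whereas the mitochondrial genes are transcribed by a dedicated polymerase as long RNAs that are then processed. Microglia, the resident macrophages of the brain, draw on both oxidative phosphorylation and glycolysis.

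The libraries held RNA of microglia from the striatum, whose tissue the labels call neuronal. The animals were C57BL/6J males, 9 weeks old per the labels, which gave themselves intravenous infusions in daily sessions of 2 hr over 15 days. The Abstinence group (7 libraries) took methamphetamine at 0.05 mg/kg per infusion and was collected after 21 further days in the home cage. The Maintenance group (8 libraries) took the same drug and was collected right after its last session, as was the Saline group (8 libraries), which took saline. The treatment label reads methamphetamine self-administration in all 23 libraries, and the grouping follows the group label. Since all Saline libraries were collected at the end of the sessions, drug history, age and home cage time cannot be told apart in Abstinence against Saline. The labels do not say that each replicate is a separate animal, so p-values measure the spread between these samples.

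Libraries totalled 54970954 to 94827095 counts, and levels are given as CPM, a gene's count scaled to a common library size after TMM normalisation. Maintenance 8 stood apart from every other library in markers of choroid plexus. The 10 markers of choroid plexus and ependyma, the tissue that secretes cerebrospinal fluid and the cells that line the ventricles, summed to 75583 CPM there, against 104 to 329 CPM in the other 7 Maintenance libraries, 107 to 358 CPM in Abstinence and 23.1 to 284 CPM in Saline. Among these, the transthyretin gene Ttr measured 40528 CPM in Maintenance 8 and at most 55.6 CPM in the other 22 libraries, while the ciliary markers Foxj1, Tmem212 and Ccdc153 were at 5.03, 4.42 and 3.69 CPM in it and reached 3.61, 21.2 and 14.4 CPM elsewhere. Of the 10 choroid and ependyma markers 8 were higher in Maintenance 8 than in every other library. The 10 markers of striatal neurons were also highest in Maintenance 8, at a sum of 379 CPM with Drd1 and Drd2 at 0, against 28.5 to 85.7 CPM in the other 7 Maintenance libraries, 34.5 to 123 CPM in Abstinence and 21.3 to 111 CPM in Saline. The 10 microglial markers, none of which was at 0, summed to 41655 CPM in Maintenance 8 and to at least 49697 CPM elsewhere. Maintenance 6 and 7 had the fewest genes detected, 12459 and 12740, against 14727 to 17034 in the other 21 libraries. Most results that rest on Maintenance 8 are given with and without it. The fits with marker covariates or a replicate block are given only with it. In bulk RNA, fewer cells of a type and less RNA per cell cannot be told apart.

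The 13 mitochondrial genes fell into a high and a low set that did not follow their place in the respiratory chain. Levels between genes are compared as CPM per kb, averaged over the 8 Saline libraries. The length was that of the gene for mitochondrial genes and of all annotated exons joined for nuclear genes. CYTB, the cytochrome b of complex III, was highest at 4443 CPM per kb, followed by ND1 at 1518 and COX1 at 1073. ND2, ND4, ND5 and ND6 lay between 323 and 502 CPM per kb. The other 6 genes were far lower: ND3 at 27.7, ATP6 at 10.6, ATP8 at 8.07, COX2 at 3.59, COX3 at 3.57 and ND4L at 2.45 CPM per kb. Together these 6 made up 0.164% to 0.320% of the mitochondrial counts in the 23 libraries.

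Of the 6 low genes, 5 have a near-identical annotated copy along nearly their whole length in nuclear DNA. On chromosome 1, bases 24611535 to 24616197 (GRCm38, minus strand), GENCODE M21 annotates 7 adjacent pseudogenes that match mitochondrial genes at 99.71% to 100% identity. They cover 99.6% of COX2, 99.6% of ATP6, 99.9% of COX3, 99.1% of ND3 and 99.0% of ND4L, but 63.6% of ND4 and 31.3% of COX1. Of windows of 75 bases along each gene, 0.492% in COX2, 0.494% in ATP6, 0.141% in COX3, 2.19% in ND3 and 1.35% in ND4L lacked an identical match among the annotated nuclear copies, against 38.5% in ND4, 60.2% in COX1, 94.3% in ND2, 98.3% in ND5 and 100% in ND1, ND6 and CYTB. ATP8 had no such match in 100% of its windows, but it lies in the stretch between COX2 and ATP6, and the pseudogenes of these neighbours are 233 bases apart, as are the same points of the mitochondrial genome. The unannotated stretch was not searched. None of the copies had a row in the count table. How reads that match several places were counted is not given in the sources used here, and the part of these copies in the low levels was not tested. The following stretches of 60 bases show the extremes, with bases that differ between a gene and its copy in capitals.
COX3 (MT:8907-8966, plus strand): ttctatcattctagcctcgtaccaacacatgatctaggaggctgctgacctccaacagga
Gm28437 (chr1:24613612-24613671, minus strand): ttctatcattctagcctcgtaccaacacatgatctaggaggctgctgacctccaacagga
ND3 (MT:9459-9518, plus strand): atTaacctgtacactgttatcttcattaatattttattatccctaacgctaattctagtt
Gm28438 (chr1:24613060-24613119, minus strand): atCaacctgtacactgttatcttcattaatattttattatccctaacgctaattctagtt
CYTB (MT:14445-14504, plus strand): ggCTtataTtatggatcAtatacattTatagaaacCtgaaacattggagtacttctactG
Gm11410 (chr4:80004289-80004348, plus strand): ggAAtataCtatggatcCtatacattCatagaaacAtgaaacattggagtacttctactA

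The COX3 stretch is the same in both genomes, so a read from it has no base that tells them apart. In ND3 the T3C substitution, counted from the first base of the gene and written with the mitochondrial base first, is the only one in the aligned part of the gene. The most similar copy of CYTB, on chromosome 4, differs from it at 7 of the 60 bases shown. Changes in the 6 low genes are therefore reported as uncertain. ND5 and ND6 lie on opposite strands and overlap only at bases 13552 to 13565, a small part of either gene. Their changes are also reported with caution, since the strand of the reads is not stated. The ratio of ND6 to ND5 counts was 0.264 to 0.325 in all 23 libraries.

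**Figure D1:**
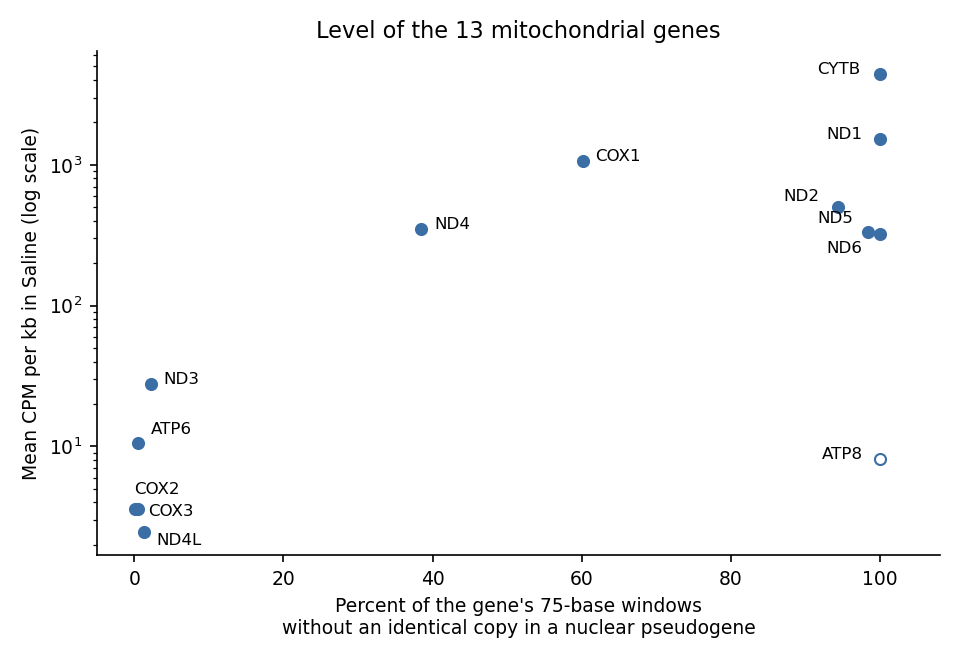
Mean CPM per kb in the 8 Saline libraries (vertical axis, log scale) against the percent of each gene's 75-base windows with no identical match among annotated nuclear pseudogenes (horizontal axis), 1 point per mitochondrial gene. COX2, COX3, ATP6, ND3 and ND4L lie at the lower left between 2.45 and 27.7 CPM per kb, CYTB is highest at 4443, and ATP8 (open circle) lies in a stretch of the chromosome 1 copy that is not annotated.

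The nuclear genes were more even in level. In Saline the lowest was Ndufs5 with 24.2 CPM and the median was 66.2 CPM, and per length they ranged from 7.27 CPM per kb (Ndufb2) to 157 CPM per kb (Ndufa2), with a median of 64.5. Every nuclear gene had at least 1111 counts in every library. Among the 8 Saline libraries the coefficient of variation of the nuclear genes had a median of 7.89%, below the 17.8% of the 7 high mitochondrial genes and the 12.0% of the 5729 tested genes with at least 20 CPM. Ndufc1 varied most of the 36, with 18.8%. In the other groups the order of the 2 sets was turned, with medians of 13.4% over the nuclear and 11.5% over the 7 high mitochondrial genes in Abstinence, and of 41.3% and 14.2% in Maintenance (14.6% and 11.6% without Maintenance 8). Over the same 5729 genes the median was 13.5% in Abstinence, close to that of the nuclear genes, and 19.2% in Maintenance (17.8% without Maintenance 8). Of the nuclear members 7 overlap another tested gene, among them Ndufs1, Ndufv2, Ndufa2, Ndufa13, Ndufb11 and Ndufa1, and 7 have a processed pseudogene of at least 95% identity over at least 150 bases (Ndufa12, Ndufb11, Ndufb3, Ndufb4, Ndufs3, Ndufs5 and Ndufs6), so their counts are uncertain to that extent.

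Summed over genes, the nuclear set overlapped between the 3 groups. It totalled 2086 to 2803 CPM in Abstinence (median 2512), 1870 to 5419 CPM in Maintenance (median 2420) and 2390 to 2765 CPM in Saline (median 2603), and Maintenance 8 alone lay above 2803 CPM. The mitochondrial set took 0.889% ± 0.084 of all counts in Abstinence (SD, n = 7), 0.934% ± 0.102 in Maintenance (n = 8) and 0.996% ± 0.191 in Saline (n = 8). The groups overlapped, with the highest shares in Saline 7 (1.32%) and Saline 5 (1.22%). On the log2 scale the ratio of mitochondrial to nuclear counts was 1.86 ± 0.20 in Abstinence, 1.84 ± 0.44 in Maintenance and 1.94 ± 0.29 in Saline. The 2 highest ratios were those of Saline 7 and 5, and the lowest was that of Maintenance 8, at 0.81. Without Maintenance 8 the Maintenance mean was 1.99 ± 0.17, so that it lay above Saline instead of below it, by less than the spread in either case.

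**Figure D2:**
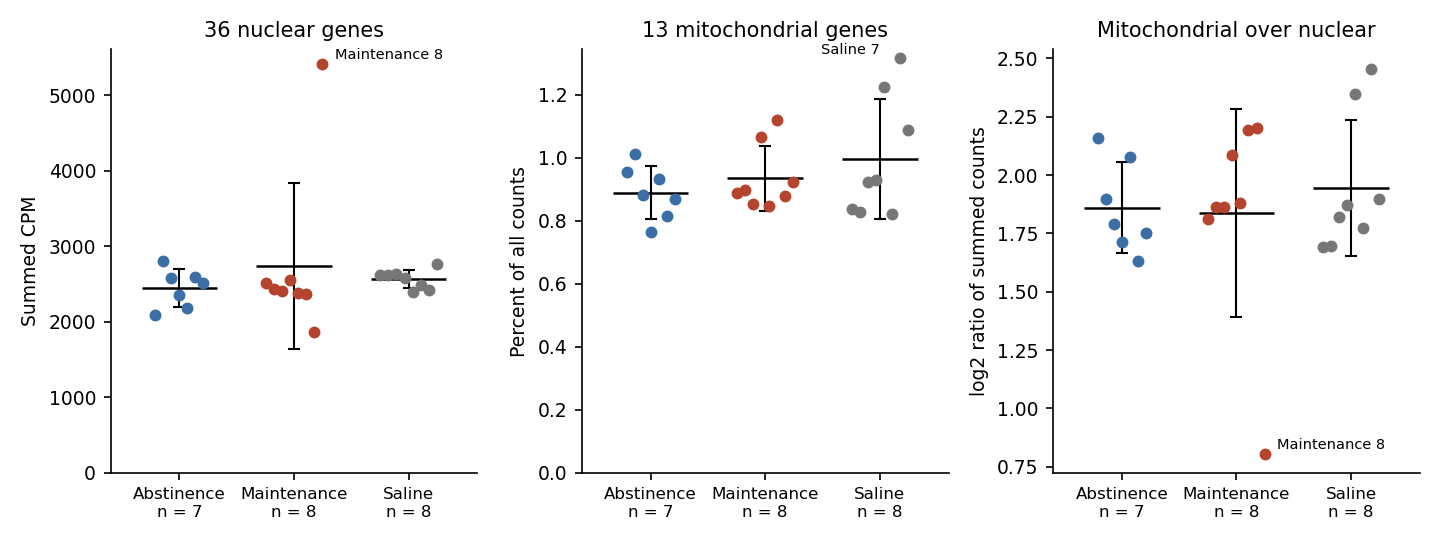
Summed CPM of the 36 nuclear genes (left), percent of all counts from the 13 mitochondrial genes (middle) and log2 ratio of their summed counts (right), 1 point per library, with mean (line) and SD (bar) for Abstinence (n = 7), Maintenance (n = 8) and Saline (n = 8). Maintenance 8 lies apart at 5419 CPM and a log2 ratio of 0.81, and Saline 7 has the highest mitochondrial share, 1.32%.

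The first comparison asked how the respiratory genes stood at the end of methamphetamine taking. In Maintenance against Saline, 0 of the 36 nuclear and 0 of the 13 mitochondrial genes changed by edgeR's quasi-likelihood test (Benjamini-Hochberg adjusted p under 0.05 over 16121 genes), beside 0.707% of all genes tested. By DESeq2, which gave no adjusted p for 4 mitochondrial genes, and by limma voom 0 members passed as well. At an unadjusted p under 0.05 there were 1 nuclear and 2 mitochondrial genes, beside 11.8% of all genes. In 0 members did all Maintenance libraries lie above or all below the Saline libraries, beside 0.416% of all genes. The median log2 fold change was 0.08 over the nuclear genes (25 of 36 positive) and -0.05 over the mitochondrial genes (3 of 13 positive), beside 0.01 and 50.6% positive over all genes. Without Maintenance 8 the nuclear median turned to -0.14 with 3 of 36 positive, the mitochondrial median was -0.07 with 1 of 13 positive, and 0 members passed in 15956 genes (0.765% of all genes). At an unadjusted p under 0.05 there were then 7 nuclear genes, all lower, beside 11.7% of all genes. The median levels of markers of some other cells differed between these groups too. The 12 oligodendrocyte markers, none at 0 throughout, summed to 4693 to 10261 CPM in Maintenance (median 8112, and 8756 without Maintenance 8) and 4697 to 9515 CPM in Saline (median 5542), and the 5 erythrocyte markers to 59.98 to 503 CPM in Maintenance (median 109) and 161 to 691 CPM in Saline (median 474). The 12 neutrophil markers summed to 9.97 to 195 CPM in Maintenance, with Mpo and Elane at 0, and 50.1 to 956 CPM in Saline. With the means of oligodendrocyte and neutrophil markers as covariates the nuclear median was 0.19 (30 of 36 positive) and the mitochondrial median -0.17 (2 of 13 positive), and 0 members changed. This fit held Maintenance 8, without which the nuclear median of the fit without covariates turned negative. Choroid plexus markers were not among its covariates. The part of these markers in the result was not tested.

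Among the core subunits, Ndufs1 (chromosome 1, bases 63143592 to 63176822, GRCm38.p6), the iron-sulfur protein of the electron input module, had the smallest p of the nuclear genes. It measured 52.2 to 129.9 CPM in Maintenance (median 71.8) and 53.4 to 67.0 CPM in Saline (median 63.9). The highest value was in Maintenance 8, 4 other Maintenance libraries also lay above the Saline median, and the groups overlapped. The log2 fold change was 0.29 ± 0.13 (SE, edgeR adjusted p = 0.37), and 0.14 without Maintenance 8 (adjusted p = 0.665). Ndufv1 (chromosome 19, bases 4007499 to 4012755), which binds NADH and the flavin, measured 67.3 to 122 CPM in Maintenance (median 71.9) and 63.2 to 75.1 CPM in Saline (median 72.6), with a log2 fold change of 0.17 ± 0.10 (edgeR adjusted p = 0.564), and 0.061 without Maintenance 8 (adjusted p = 0.877). Its group medians lay within 1 CPM of each other. Of the quinone module, Ndufs3, Ndufs7 and Ndufs8 had log2 fold changes between -0.07 and 0.11, with 95% intervals inside 1.5-fold either way, and without Maintenance 8 they were 0.01, -0.18 and -0.11.

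By role, the median log2 fold change in Maintenance against Saline was 0.17 over the electron input module, 0.12 over the A series, 0.05 over the B series, 0.15 over the 2 genes of the C series and 0.05 over the S and V series. Without Maintenance 8 it was 0.061 over the electron input module and below 0 over the accessory series, at -0.14 in the A, -0.15 in the B, -0.16 in the C and -0.22 in the S and V series. The largest positive estimates, those of Ndufa11 and Ndufa4, rested on Maintenance 8. Ndufa11 (chromosome 17, bases 56717762 to 56724248), a membrane arm subunit, measured 29.5 to 43.1 CPM in 7 Maintenance libraries, 211 CPM in Maintenance 8 (median of all 8, 33.4), and 29.4 to 42.9 CPM in Saline (median 39.4). The 7 libraries spanned the same range as Saline. Its log2 fold change was 0.57 ± 0.33 (edgeR adjusted p = 0.543) and turned to -0.15 without Maintenance 8. Ndufa4 (chromosome 6, bases 11900372 to 11907450), the complex IV protein, measured 44.4 to 76.2 CPM in 7 Maintenance libraries, 344 CPM in Maintenance 8 (median of all 8, 67.5), and 63.8 to 76.5 CPM in Saline (median 70.8). Its log2 fold change of 0.49 ± 0.31 (edgeR adjusted p = 0.606) turned to -0.14 without that library. The 7 genes with an unadjusted p under 0.05 in the fit without Maintenance 8 were Ndufb2, Ndufa7, Ndufa1, Ndufb8, Ndufs7, Ndufs6 and Ndufs5, with log2 fold changes from -0.39 to -0.18 and edgeR adjusted p from 0.117 for Ndufb2 to 0.426 for Ndufs5. These 7 were picked from that fit after its values were seen.

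Of the mitochondrial genes, ND1 (MT, bases 2751 to 3707), a membrane core subunit at the entry to the quinone site, had the smallest p of all 49. It measured 920 to 1466 CPM in Maintenance (median 1191) and 1248 to 1898 CPM in Saline (median 1385). The ranges overlapped, and 7 of 8 Maintenance libraries lay below the Saline median. Its log2 fold change was -0.28 ± 0.10 (edgeR adjusted p = 0.168; -0.33 and 0.0802 without Maintenance 8), and the adjusted p over the 36 alternatives was 0.0802 to 0.377. The share of ND1 in the mitochondrial counts was 12.8% ± 1.75 in Maintenance (n = 8) and 14.6% ± 0.959 in Saline (n = 8, SD). In Maintenance without Maintenance 8 it was 12.4% ± 1.49 (n = 7), and it was lowest in Maintenance 6 (9.98%) and Maintenance 7 (10.7%). ND3, a small membrane subunit and 1 of the genes with a nuclear copy, measured 2.86 to 12.4 CPM in Maintenance (median 6.89) and 7.56 to 12.98 CPM in Saline (median 8.91). All Maintenance libraries but Maintenance 8 lay below the lowest Saline value, among them Maintenance 7 with the lowest of all. The log2 fold change was -0.56 ± 0.27 (edgeR adjusted p = 0.411) and -0.76 without Maintenance 8. Without Maintenance 6, 7 and 8 together, the log2 fold changes were -0.26 for ND1 and -0.51 for ND3 (edgeR adjusted p = 0.246 and 0.39).

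**Figure D3:**
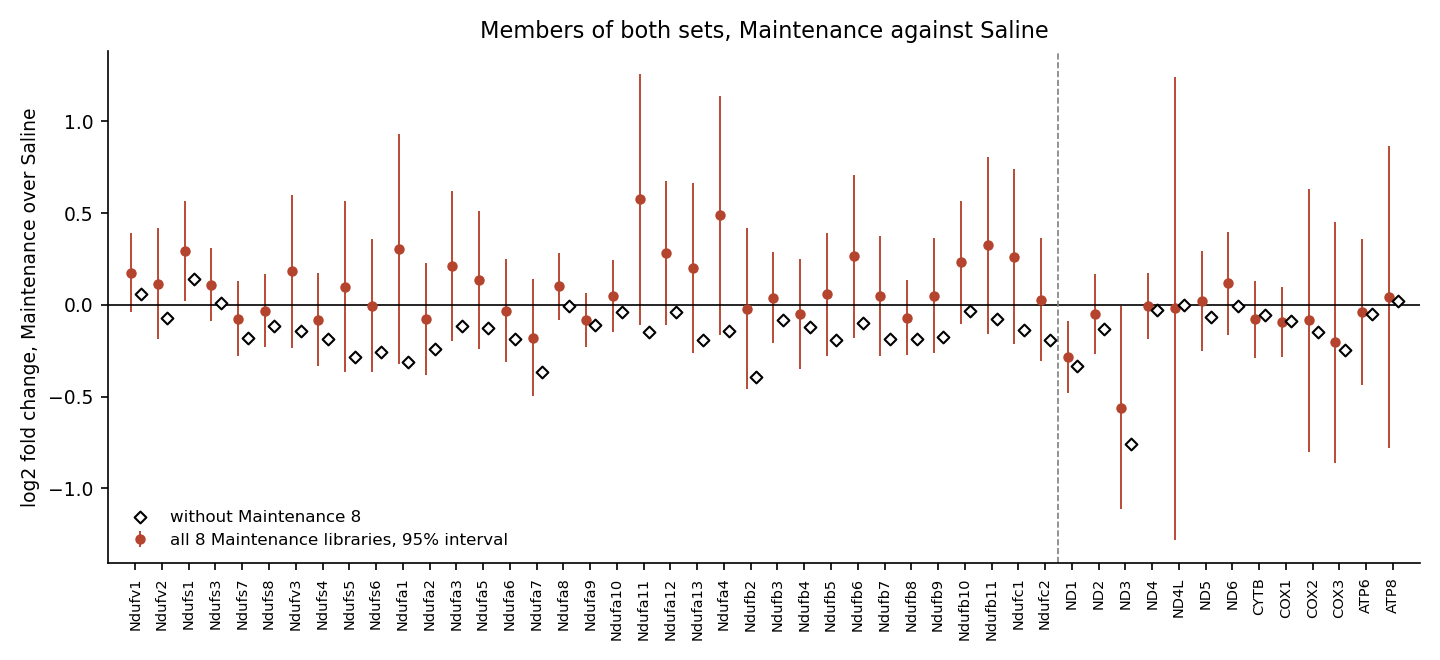
Log2 fold change of the members in Maintenance over Saline (1 nuclear gene is not drawn), with its 95% interval in the fit of all 23 libraries (circles), and the estimate without Maintenance 8 (diamonds); the dashed line separates the nuclear genes (left, core subunits first) from the mitochondrial genes (right). Over all 36 nuclear genes, 33 estimates were below 0 without Maintenance 8, against 11 with it, and ND1 and ND3 lie lowest of the mitochondrial genes in that fit at -0.33 and -0.76.

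The second comparison asked what differed from Saline after the drug-free period. In Abstinence against Saline, 0 of 36 nuclear and 0 of 13 mitochondrial genes changed by edgeR, beside 0.0186% of all genes, and 0 members passed by DESeq2 or limma voom. At an unadjusted p under 0.05 there were 0 nuclear genes and 1 mitochondrial gene, beside 4.39% of all genes. Groups that did not overlap were found in 0 members, beside 0.198% of all genes. The median log2 fold change was -0.07 over the nuclear genes (8 of 36 positive) and -0.18 over the mitochondrial genes (0 of 13 positive), beside 51.3% positive over all genes. Mitochondrial genes of 1 library share their source and were transcribed from 1 genome, so their common sign is not that of 13 independent values. Without Maintenance 8 in the fit 0 members changed (0.0251% of all genes), with 1 nuclear and 1 mitochondrial gene at an unadjusted p under 0.05 (5.25% of all genes). With the marker covariates the nuclear median turned to 0.073 (26 of 36 positive), while the mitochondrial median was -0.29 with 0 of 13 positive and 2 genes at an unadjusted p under 0.05. The summed CPM of the 12 oligodendrocyte markers was 5570 to 9125 in Abstinence (median 7517) and 4697 to 9515 in Saline (median 5542). That of the 12 neutrophil markers was 14.6 to 172 in Abstinence (median 67.3) and 50.1 to 956 in Saline (median 136). For the 10 choroid plexus and ependyma markers the medians were 253 CPM in Abstinence and 78.8 CPM in Saline, and for the 5 erythrocyte markers 428 and 474 CPM. Of the neutrophil list Ltf, Mpo and Elane were at 0 in all Abstinence libraries and none was at 0 in all Saline libraries. The part of these markers in the result was not tested.

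COX1 (MT, bases 5328 to 6872), the catalytic subunit of complex IV, was the mitochondrial gene with the smallest p. It measured 1260 to 1821 CPM in Abstinence (median 1477) and 1365 to 2114 CPM in Saline (median 1559). The ranges overlapped over most of their length. The log2 fold change was -0.20 ± 0.10 (edgeR adjusted p = 0.999). CYTB (MT, bases 14145 to 15288) measured 3685 to 5055 CPM in Abstinence (median 4436) and 4079 to 6782 CPM in Saline (median 4688), with a log2 fold change of -0.18 ± 0.11 (edgeR adjusted p = 0.999). In both genes the highest Saline value was in Saline 7, the library with the largest mitochondrial share, and without it the log2 fold changes were -0.14 for COX1 and -0.11 for CYTB. ND4L, the lowest member, had 22 to 109 counts in the 23 libraries. It measured 0.305 to 0.810 CPM in Abstinence (median 0.434) and 0.282 to 1.30 CPM in Saline (median 0.707), with a log2 fold change of -0.59 ± 0.64 (edgeR adjusted p = 0.999), so that its interval reached from -1.91 to 0.72.

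The nuclear genes with the smallest p were the iron-sulfur subunits Ndufs7 (chromosome 10, bases 80249105 to 80256794) and Ndufs8 (chromosome 19, bases 3908863 to 3912774), which carry the last clusters before ubiquinone. Ndufs7 measured 67.9 to 96.0 CPM in Abstinence (median 85.7) and 86.7 to 109 CPM in Saline (median 91.3), with a log2 fold change of -0.16 ± 0.10 (edgeR adjusted p = 0.999). Ndufs8 measured 80.9 to 129.9 CPM in Abstinence (median 111) and 101 to 131 CPM in Saline (median 121), with a log2 fold change of -0.14 ± 0.10 (edgeR adjusted p = 0.999). In both genes the lowest value of these 2 groups was in Abstinence 1, which also had the lowest nuclear sum in Abstinence, and without it the log2 fold changes were -0.11 for Ndufs7 and -0.079 for Ndufs8. The 95% intervals of 30 of 36 nuclear genes and of all 7 high mitochondrial genes lay inside 1.5-fold in this comparison, but those of 0 of the 6 low mitochondrial genes did.

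The third comparison set the Abstinence libraries beside the Maintenance libraries, both from animals that had taken methamphetamine. Maintenance was collected right after its last session, so time since the drug, age and home cage time cannot be told apart here. In Abstinence against Maintenance, 0 of 36 nuclear and 0 of 13 mitochondrial genes changed by edgeR, beside 0.949% of all genes, and 0 members passed by DESeq2, again with no adjusted p for 4 mitochondrial genes, or by limma voom. At an unadjusted p under 0.05 there were 1 nuclear and 0 mitochondrial genes, beside 11% of all genes, and 0 members had groups that did not overlap, beside 0.403%. The median log2 fold change was -0.14 over the nuclear genes (4 of 36 positive) and -0.10 over the mitochondrial genes (2 of 13 positive), beside 50.8% positive over all genes. Without Maintenance 8 the nuclear median was 0.05 with 27 of 36 positive, and the mitochondrial median -0.11 with 3 of 13 positive. In that fit 0 members changed, beside 1.66% of all genes, and at an unadjusted p under 0.05 there were 1 nuclear and 0 mitochondrial genes, beside 11.3%. The 5 erythrocyte markers summed to 81.5 to 766 CPM in Abstinence (median 428) and 59.98 to 503 CPM in Maintenance (median 109). For the 12 oligodendrocyte markers the medians were 7517 CPM in Abstinence and 8112 CPM in Maintenance. Their part in the result was not tested.

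Ndufs3 (chromosome 2, bases 90894627 to 90904721), a quinone module core subunit, had the smallest nuclear p. It measured 57.0 to 75.9 CPM in Abstinence (median 70.3) and 64.5 to 116 CPM in Maintenance (median 77.05). The groups overlapped, and the highest value was in Maintenance 8. The log2 fold change was -0.22 ± 0.10 (edgeR adjusted p = 0.387), and -0.14 without Maintenance 8. Ndufa12 (chromosome 10, bases 94199035 to 94221440), an accessory subunit beside the electron input module, measured 43.7 to 61.1 CPM in Abstinence (median 55.5) and 47.7 to 174 CPM in Maintenance (median 60.02). Its log2 fold change of -0.40 ± 0.20 (edgeR adjusted p = 0.458) was -0.09 without Maintenance 8. Ndufs5 (chromosome 4, bases 123712710 to 123718186), the nuclear member of lowest CPM, measured 14.0 to 24.5 CPM in Abstinence (median 22.1) and 14.9 to 68.0 CPM in Maintenance (median 20.9), and its log2 fold change of -0.32 ± 0.24 (edgeR adjusted p = 0.727) turned to 0.05 without that library.

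Of the mitochondrial genes, ND5 (MT, bases 11742 to 13565), at the far end of the proton-pumping arm, measured 469.6 to 644 CPM in Abstinence (median 527) and 389.7 to 876 CPM in Maintenance (median 592). ND6 (MT, bases 13552 to 14070), the 1 protein gene on the other strand, measured 146 to 189 CPM in Abstinence (median 154) and 115 to 285 CPM in Maintenance (median 164). In both genes the Maintenance values spread on both sides of those of Abstinence, from Maintenance 5 at the low end to Maintenance 8 at the high end. The log2 fold changes were -0.19 ± 0.14 for ND5 (edgeR adjusted p = 0.718) and -0.19 ± 0.14 for ND6 (edgeR adjusted p = 0.752). Without Maintenance 8 they were -0.11 and -0.074.

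**Figure D4:**
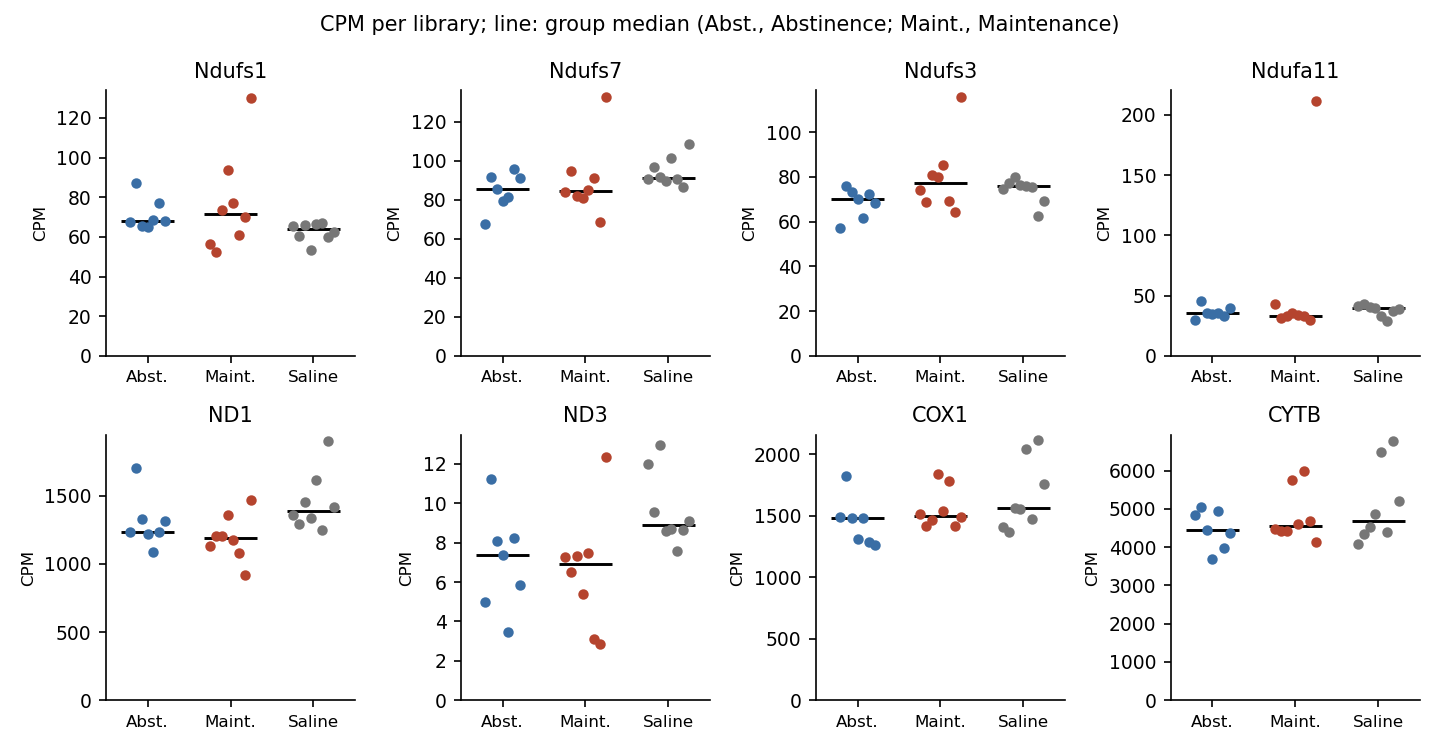
CPM per library of 4 nuclear genes (upper row) and 4 mitochondrial genes (lower row) in Abstinence (n = 7), Maintenance (n = 8) and Saline (n = 8), with the group median as a line; each vertical axis starts at 0. The high Maintenance point in Ndufs1, Ndufs7, Ndufs3 and Ndufa11 is Maintenance 8 (211 CPM in Ndufa11), and in ND3 7 of 8 Maintenance points lie below the lowest Saline point, 7.56 CPM.

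Within Maintenance, the library with choroid plexus markers differed from the other 7 across the nuclear set and by a smaller median ratio across the mitochondrial set. This is a description of 1 library with no test. All 36 nuclear genes were higher in Maintenance 8 than in each of the other 7, beside 20.3% of all genes tested, and 34 of 36 were highest of the 23 libraries, beside 14.3%. The ratio of Maintenance 8 to the mean of the other 7 had a median of 2.31 over the nuclear genes, from 1.16 for Ndufa9 to 6.17 for Ndufa11. By role, the median was 1.502 over the quinone module, 1.88 over the electron input module, 2.33 over the A, 2.43 over the B, 2.92 over the C and 2.78 over the S and V series of accessory subunits, and the ratio of Ndufa4 was 5.38. Of the mitochondrial genes 6 of 13 were higher in Maintenance 8 than in each of the other 7. Their median ratio was 1.22, with CYTB at 0.84 and COX1 at 0.949, ND5 at 1.501, ND6 at 1.71 and ND3 highest at 2.17. Summed, the nuclear set measured 5419 CPM in Maintenance 8 and 1870 to 2548 CPM in the other 7, and mitochondrial counts exceeded nuclear counts 1.75-fold, against 3.51-fold to 4.60-fold. Ppargc1a, the gene of the coactivator PGC-1alpha that drives mitochondrial biogenesis, measured 21.6 CPM in Maintenance 8 and at most 1.88 CPM in the other 22 libraries. Other regulators and upkeep genes, described below, mostly did not stand out in it. Ppargc1b (1.89 CPM), Tfam (22.1 CPM), Polrmt (7.82 CPM) and Tk2 (71.3 CPM) lay within the range of the other 22 libraries. Lrpprc, at 119 CPM, lay above their highest value of 111 CPM. Whether RNA of other cells entered these values, as the choroid plexus markers or the striatal neuron list (with Drd1 and Drd2 at 0) might reflect, was not tested.

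**Figure D5:**
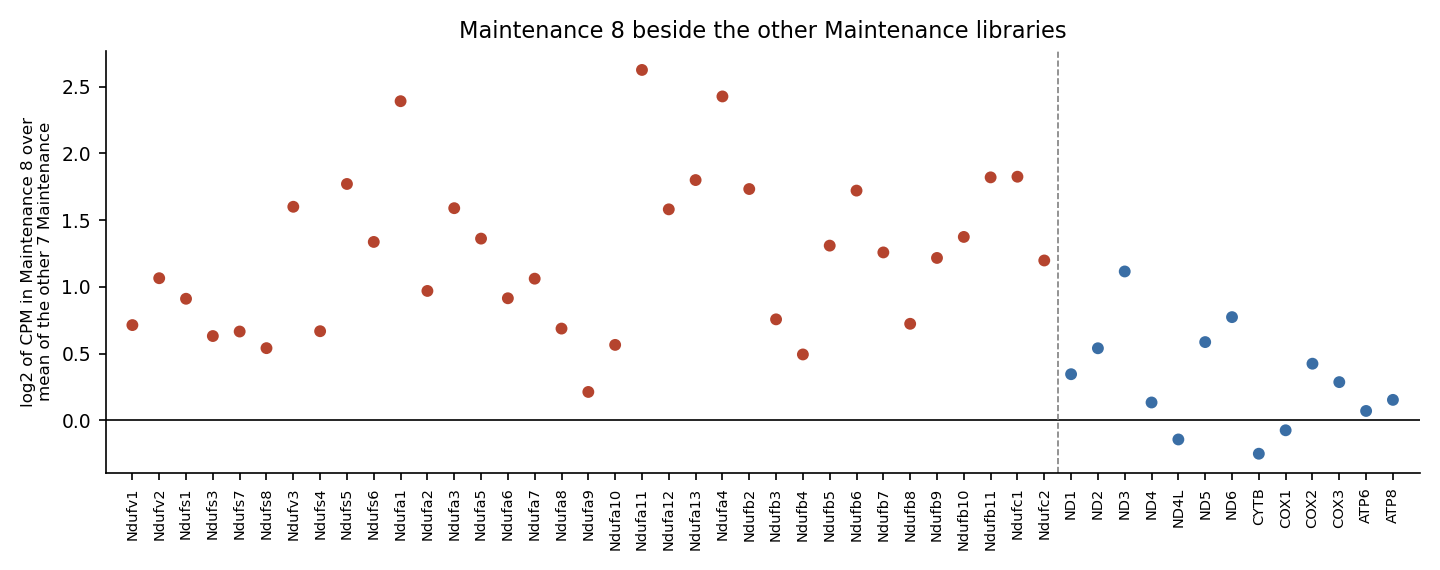
Log2 of the CPM in Maintenance 8 over the mean of the other 7 Maintenance libraries for the nuclear (red, left; 1 gene is not drawn) and mitochondrial (blue, right) members, core subunits first within the nuclear set. The nuclear points drawn all lie above 0, highest for Ndufa11 (a ratio of 6.17), while CYTB, COX1 and ND4L lie below 0.

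The nuclear members, taken by name, were searched for motifs in their promoters, 250 bases before to 50 after the start in RefSeq (GRCm38.p6), which matched 32 of the 36. Whether these motifs bear on the values in Maintenance 8 was not tested. Both strands were searched for the exact letters of each motif. AAGATGGC, a YY1 motif, was in 7 of 32 (21.9%), beside 4.3% of the promoters of tested genes. GCATGCGC, the core of the motif of the nuclear respiratory factor NRF1, was in 3 of 32 (9.38%, beside 4.93%), and CCGGAAGT, bound by ETS factors such as GABP, in 1 of 32 (3.12%, beside 7.43%). CCAAT was in 31.2% (beside 38.3%) and TATAAA in 12.5% (beside 7.63%). The windows of 30 bases that follow hold the 3 genes with the NRF1 core (Ndufa11, the gene of the largest ratio in Maintenance 8, Ndufa6 and Ndufa8), the ETS match of Ndufs3 and YY1 matches of Ndufa9, the gene of the smallest ratio, and of Ndufs7. The match is in capitals and each window is read in the direction of its gene.
Ndufa11 (chr17:56717693-56717722, plus strand): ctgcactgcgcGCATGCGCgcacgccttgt
Ndufa6 (chr15:82354356-82354385, minus strand): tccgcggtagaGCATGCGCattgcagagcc
Ndufa8 (chr2:36049328-36049357, minus strand): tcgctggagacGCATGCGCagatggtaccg
Ndufs3 (chr2:90904703-90904732, minus strand): tgcacatttccACTTCCGGtccgtgccctt
Ndufa9 (chr6:126849097-126849126, minus strand): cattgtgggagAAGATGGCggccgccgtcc
Ndufs7 (chr10:80249462-80249491, plus strand): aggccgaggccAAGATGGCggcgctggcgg

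The NRF1 core begins 58 bases before the start in Ndufa11, 83 in Ndufa6 and 8 in Ndufa8, and in Ndufa11 it overlaps a match on the other strand. The YY1 matches of Ndufa9 and Ndufs7 begin at transcribed bases 30 and 25. For Ndufs7 the start used is not the first base of the gene (chromosome 10, bases 80249105 to 80256794) but a later start within it. The letters of the YY1 motif contain ATG, so a match in transcribed sequence can also hold a start codon. A match describes letters in these windows and does not show that a factor binds there.

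Other genes of the respiratory chain and of mitochondrial upkeep were read beside the members. Over the 3 comparisons, 0 of 15 assembly factors of complex I, 0 of 4 subunits of complex II, 0 of 9 nuclear subunits of complex III, 0 of 12 of complex IV (Ndufa4 among them) and 0 of 16 of the ATP synthase changed by edgeR. At an unadjusted p under 0.05 there were 3 assembly factors in Maintenance against Saline and 1 in each of the other comparisons, and at most 1 gene of each list of subunits of complexes II to IV and the ATP synthase in any comparison. Over all genes the shares were 11.8% in Maintenance against Saline, 4.39% in Abstinence against Saline and 11% in Abstinence against Maintenance. Of 24 genes of mitochondrial transcription and RNA handling, and of 8 tested regulators of biogenesis, 0 changed by edgeR, DESeq2 or limma voom. DESeq2 gave no adjusted p for 4 of the 24 and 2 of the 8 in each comparison with Maintenance. At an unadjusted p under 0.05 edgeR gave at most 1 gene of each of these lists in any comparison. Of the 10 tested genes of mitochondrial DNA maintenance it gave 2 in Maintenance against Saline (beside 11.8% of all genes), 2 in Abstinence against Saline (beside 4.39%) and 1 in Abstinence against Maintenance (beside 11%). The medians of the nuclear subunits of complexes III and IV and of the ATP synthase changed sign with that of the nuclear members when Maintenance 8 was left out. In Maintenance against Saline they were 0.03, 0.18 and 0.09 with it and -0.19, -0.14 and -0.20 without it, where 1 of 9, 1 of 12 and 0 of 16 genes were positive and 0 changed. Without it 5 of 9, 2 of 12 and 7 of 16 genes had an unadjusted p under 0.05, beside 11.7% of all genes.

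Beyond edgeR's calls, 2 of these genes passed by DESeq2 but not by edgeR, and they were named after their values were seen. Foxred1, an assembly factor of complex I, measured 36.8 to 51.5 CPM in Abstinence (median 42.5), 25.2 to 38.4 CPM in Maintenance (median 34.2) and 40.3 to 51.4 CPM in Saline (median 42.4). All Maintenance libraries lay below all Saline libraries, beside 0.416% of all genes in which these groups did not overlap, while Abstinence overlapped both. Its log2 fold change was -0.39 ± 0.10 in Maintenance against Saline (edgeR adjusted p = 0.0637) and 0.40 ± 0.10 in Abstinence against Maintenance (edgeR adjusted p = 0.0586). Over the 36 alternatives the adjusted p was 0.018 to 0.22 in Maintenance against Saline and passed in 3, DESeq2, limma voom and the fit without Maintenance 8. In Abstinence against Maintenance it was 0.0149 to 0.221 and passed in 5. Cox7a2l, from the list of complex IV, measured 206 to 279 CPM in Maintenance and 253 to 300 CPM in Saline (-0.25 ± 0.07, edgeR adjusted p = 0.097, and 0.0292 by DESeq2), with overlapping groups. It passed in 2 of the 36 alternatives.

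The genes of mitochondrial transcription and its regulators that were read one by one did not pass in any comparison. Tfam, which packages mitochondrial DNA, measured 16.7 to 29.4 CPM in Abstinence (median 23.3) and 1.31 to 28.5 CPM in Maintenance (median 16.2). Its log2 fold change in Abstinence against Maintenance was 0.50 ± 0.33 (edgeR adjusted p = 0.662), and 0.32 without Maintenance 7. Lrpprc, which stabilises mitochondrial mRNAs, measured 50.9 to 72.6 CPM in Abstinence (median 65.7) and 57.1 to 119 CPM in Maintenance (median 77.0), highest in Maintenance 8. Its log2 fold change was -0.32 ± 0.14 (edgeR adjusted p = 0.341), -0.23 without Maintenance 8 and -0.14 without Maintenance 6, 7 and 8. For Polrmt, the mitochondrial RNA polymerase, the log2 fold change in Abstinence against Saline was 0.42 ± 0.38 (edgeR adjusted p = 0.999) on 2.97 to 11.8 CPM in Abstinence (median 5.75) and 1.60 to 7.05 CPM in Saline (median 5.60), and it was 0.18 without Abstinence 5 and turned to -0.10 with the marker covariates. Ppargc1b, a relative of PGC-1alpha, was between 0 and 2.31 CPM in Abstinence, 0 and 1.95 CPM in Maintenance and 0.394 and 3.62 CPM in Saline, and no fold change is given at these levels.

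The gene that passed in these lists was Tk2 (chromosome 8, bases 104226691 to 104248592), the mitochondrial thymidine kinase that supplies nucleotides for copying mitochondrial DNA. It was 1 of 10 tested genes of mitochondrial DNA maintenance. Tk2 measured 93.4 to 125 CPM in Abstinence (median 105), 65.4 to 98.6 CPM in Maintenance (median 77.5) and 90.9 to 118 CPM in Saline (median 103). Maintenance overlapped both other groups in part, and 8 of 8 Maintenance libraries lay below the Saline median. Tk2 fell in Maintenance against Saline (log2 fold change -0.39 ± 0.09, edgeR adjusted p = 0.0328) and rose in Abstinence against Maintenance (0.41 ± 0.09, edgeR adjusted p = 0.022). Both use the same Maintenance libraries, and in the second the groups also differ in age and home cage time. Over the 36 alternatives the adjusted p was 0.00484 to 0.269 in Maintenance against Saline, passing in 21, and 0.00212 to 0.0886 in Abstinence against Maintenance, passing in 31. The first call ended without Maintenance 1 (adjusted p = 0.0552), 2 (0.0568), 4 (0.0699), 7 (0.0552) or 8 (0.0501), or without Saline 1 (0.059), 2 (0.0562), 3 (0.0895), 4 (0.0683), 6 (0.0556) or 7 (0.0703). The second ended without Abstinence 4 (0.0615), 6 (0.0762) or 7 (0.0514). With the marker covariates the estimate in Maintenance against Saline was -0.34 (edgeR adjusted p = 0.269). The median sum of the oligodendrocyte markers was 7517 CPM in Abstinence, 8112 CPM in Maintenance and 5542 CPM in Saline. That of the erythrocyte markers was 428 CPM in Abstinence, 109 CPM in Maintenance and 474 CPM in Saline, so it was lowest in Maintenance, as Tk2 was. The part of the erythrocyte markers was not tested in either comparison.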

How the data were processed

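The authors deposited a table of whole-number read counts per gene for 23 microglial RNA libraries, not normalised. The tools named per the submitters' processing notes were STAR 2.7.10a, cutadapt 1.18, Trim Galore 0.6.7, DESeq2 1.38.3 and StringTie 2.1.5, and the build was mm10 (GRCm38). Their settings, the strand of the reads and the counting of reads that match several places are not given in the sources used here. A second deposited table of 17 of these libraries held the same counts in all 611592 values and served only as an alternative.

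From these counts, genes were kept by filterByExpr of edgeR 4.0.16 in R 4.3.3 (minimum count 10, minimum total 15), scaled by TMM and tested by glmQLFit and glmQLFTest in 1 fit of all 23 libraries with 3 contrasts. P-values were adjusted by the Benjamini-Hochberg method over all 16121 genes, with 0.05 as threshold, and intervals are at 95%. Library totals were 54970954 to 94827095 counts, and the lowest count of a member was 22. DESeq2 1.42.0, limma 3.58.1 (voom with sample quality weights), other scalings and filters, left-out libraries, a replicate block and marker covariates were alternatives. The scripts were tested on simulated data.

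Sequences are from RefSeq (promoters, GRCm38.p6) and from the GRCm38 genome with GENCODE M21. Named genes were every member past the threshold (there were 0), the 2 members of smallest p in each set and comparison, the highest and lowest member of each set, and Ndufv1, Ndufs1, Ndufa4, ND1, ND5, ND6, COX1 and CYTB. The values of 1 nuclear member, which enters every count and sum, are not reported here. Of the other lists they were any gene past the threshold and Ppargc1a, Ppargc1b, Tfam, Polrmt and Lrpprc. Members, lists and tests were chosen with earlier results of these data known.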

Additional observations from a re-analysis of the deposited data

Results flagged for a closer look

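In the groups of 7 or 8 libraries, 1 library lay outside Dixon's 95% limit for 15 of 72 groups of values examined. Chance gives about 1 in 20 for independent values, which these are not. Most of the 15 were Maintenance 8 in nuclear genes, or in a sum and a ratio that hold the same genes, so no excess over chance is read from the count. Maintenance 8 had the highest nuclear sum, 5419 CPM, against 1870 to 2548 CPM in the other Maintenance libraries, and the lowest log2 ratio of mitochondrial to nuclear counts, 0.81, against 1.81 to 2.20. The same library was highest in its group for Ndufa4 (344 CPM), Ndufa11 (211 CPM), Ndufa12 (174 CPM), Ndufs8 (162 CPM), Ndufs7 (133 CPM), Ndufv1 (122 CPM), Ndufs3 (116 CPM) and Ndufs5 (68.0 CPM). It stood apart in this way for 30 of the 36 nuclear genes. Dixon's rule was not applied to all genes, so no share over all genes stands beside this count. Of all genes tested, 20.3% were higher in Maintenance 8 than in all 7 other Maintenance libraries.

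Abstinence 2 was highest in its group for ND1, with 1706 CPM against 1086 to 1328 CPM, and for COX1, with 1821 CPM against 1260 to 1490 CPM. It was also highest in its group for 23 of the 36 nuclear genes, but the share over all genes was not computed, so nothing is read from this count. Saline 8 measured 75.03 CPM of Ndufa12, against 53.2 to 63.1 CPM in the other Saline libraries. Maintenance 4 measured 1.17 CPM of ND4L, against 0.444 to 0.778 CPM, and Abstinence 5 measured 11.8 CPM of Polrmt, against 2.97 to 6.72 CPM.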

How the results depend on the processing

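In the 36 alternatives 0 members changed in any comparison among those with an adjusted p (DESeq2 gave none for 4 mitochondrial genes in each comparison with Maintenance, and the 1 CPM filter kept 12 of 13), while the count over all genes moved. In Maintenance against Saline (114 genes) it was 413 with limma voom, 349 with DESeq2, 176 in the 17 libraries of the second table, 57 with only the 2 groups compared, 42 with marker covariates and 42 to 197 with 1 library left out, lowest without Saline 3. In Abstinence against Saline (3) it was 208 with limma voom, 56 in the 17 libraries, 36 with DESeq2, 15 without Maintenance 6, 7 and 8, 6 with a 1 CPM filter, 5 with 2 groups, 0 with covariates and 1 to 15 with 1 library left out, highest without Saline 8. In Abstinence against Maintenance (153) it was 452 with DESeq2, 340 with limma voom, 242 with a 1 CPM filter, 238 in the 17 libraries, 64 with 2 groups and 89 to 265 with 1 library left out, highest without Maintenance 8. Same-numbered libraries did not deviate together (4 of 22 correlations above 0.1). The replicate block gave 69, 4 and 126 genes and ended the calls of Tk2 (adjusted p 0.0581 and 0.0625). With the block the nuclear median was 0.013 in Maintenance against Saline, with 18 of 36 genes positive in each of the other comparisons. The nuclear median in Maintenance against Saline was -0.14 to 0.13 with 1 library left out (-0.14 without Maintenance 8), -0.07 in the 17 libraries, -0.06 without Maintenance 6, 7 and 8, -0.03 with limma voom and 0.19 with covariates. In Abstinence against Saline it was 0.073 with covariates. The mitochondrial median in Maintenance against Saline was 0.02 without Saline 7 and -0.17 with covariates. Ndufa11 turned to -0.10 without Maintenance 6, 7 and 8, -0.18 in the 17 libraries and -0.12 with DESeq2 (-0.15 to 0.67 with 1 library left out), and Ndufa4 to -0.048, -0.0630 and -0.11 (-0.14 to 0.60). Ndufs5 in Abstinence against Maintenance was -0.42 to 0.047 (positive without Maintenance 8), and Polrmt in Abstinence against Saline -0.10 with covariates. For the nuclear sum and the log2 ratio, leaving out libraries was chosen after seeing the data, and without Maintenance 8 the ratio in Maintenance exceeded that in Saline by 0.041. The causes were not tested. Neither the 17 libraries nor the fit without Maintenance 6, 7 and 8 holds Maintenance 8, whereas the fit with covariates does. Depth limits the 6 low mitochondrial genes, of which ND4L had as few as 22 counts.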

Other observations

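Ndufab1, the acyl carrier subunit of complex I whose name falls outside the pattern, measured 115 CPM in Maintenance 8 and 34.5 to 76.3 CPM in the other 22 libraries. Ndufa4l2, a relative of Ndufa4, was at 5.23 CPM in Maintenance 8 and 1.64 to 27.7 CPM elsewhere. Neither changed in any comparison.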
